A study of Mus musculus with 14 samples.

Results

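The genes described here are the interferon-stimulated genes of mouse skin together with Trim30a and Trim30d, a set of 37 genes listed by name. A probe set stood for a gene when the array's annotation gave it a single symbol, and where a gene had several, the one with the highest mean over all arrays was taken. In this way 33 of the 37 genes were measured, out of 17097 genes on the array, and Isg15, Oas1a, Ifi44 and Bst2 are not analysed here. The 33 genes were read by 49 probe sets, and 11 of them had more than 1.

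RNA was measured on 14 one-colour expression arrays of skin cells from mice aged 15 weeks, labelled as homeostatic skin. The cells came from 2 compartments of the skin: the hair follicle bulge, which holds the follicle's stem cells, and the interfollicular epidermis (IFE), the stratified epithelium between follicles. Mice were wild type (WT) for G9a or carried its conditional knockout (cKO). G9a, encoded by Ehmt2, is a histone methyltransferase that places the repressive methyl mark on lysine 9 of histone H3. The groups were bulge WT with 3 arrays, bulge cKO with 4, IFE WT with 3 and IFE cKO with 4. The sources used here do not give the driver of the deletion, any allele that the WT mice carried, or how the compartments were separated. The labels do not say whether replicates are separate animals, so the p-values measure the spread between these samples only. In bulk RNA, fewer cells of a type and less RNA per cell cannot be told apart.

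Interferons are secreted proteins that bind cell-surface receptors and activate the kinases Jak1 and Tyk2. Stat2 then enters the nucleus with Irf9 in a complex that binds interferon-stimulated response elements (ISRE), and interferon-gamma acts through gamma-activated sites (GAS). The genes switched on in this way sense foreign nucleic acid, block viral replication and tune the pathway itself. In keratinocytes they are known to respond to infection, wounding and nucleic acids released by dying cells, and G9a is known in other cell types to restrain interferon genes.

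The DNA just upstream of the genes was examined for the cores of both elements, since these letters are what the pathway's factors are known to bind. RefSeq promoter sequences (GRCm38.p6, from 250 bases before to 50 after each transcript start) were matched for 29 of the 37 genes. Oas2, Usp18, Mx1, Mx2, Ifi27l2a, Rtp4, Dhx58 and Zbp1 had no entry. The ISRE core was searched as TTTC, any 2 bases and TTTC or, on the other strand, GAAA, any 2 bases and GAAA, and the GAS core as TTC, any 3 bases and GAA, which reads alike on both strands. Matches to the cores could overlap each other. The ISRE core was found in 17 of the 29 genes (58.6%), against 3.99% of all genes and 3.44% of all 32851 promoters in the table. The GAS core was found in 9 of the 29 (31.0%), against 9.55% of all genes and 8.3% of all promoters. These shares describe genes named for their response to interferon, and a match of letters does not show that a factor binds.

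The 250 bases upstream of the start are printed for the pair of Trim30 genes that are compared throughout, for Irf1, which rose in the bulge, and for Rsad2, Ifit1 and Ifi202b, which carry the cores and for which no change with G9a loss passed the test. Capitals mark the matches. Trim30d, at chr7:104507850-104508099, Trim30a, at chr7:104465194-104465443, Rsad2, at chr12:26456453-26456702, and Ifi202b, at chr1:173982845-173983094, lie on the minus strand. Irf1, at chr11:53769764-53770013, and Ifit1, at chr19:34640639-34640888, lie on the plus strand. All are written 5′ to 3′ along the gene.
Trim30d: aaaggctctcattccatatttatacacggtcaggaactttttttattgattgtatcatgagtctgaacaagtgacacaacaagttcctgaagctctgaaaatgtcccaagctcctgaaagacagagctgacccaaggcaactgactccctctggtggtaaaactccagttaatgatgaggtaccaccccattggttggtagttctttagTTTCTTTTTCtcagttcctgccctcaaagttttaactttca
Trim30a: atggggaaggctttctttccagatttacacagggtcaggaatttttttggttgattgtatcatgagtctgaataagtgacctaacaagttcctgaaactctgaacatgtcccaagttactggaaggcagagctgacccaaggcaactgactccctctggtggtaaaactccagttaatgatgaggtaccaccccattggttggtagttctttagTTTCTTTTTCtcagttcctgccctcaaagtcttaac
Irf1: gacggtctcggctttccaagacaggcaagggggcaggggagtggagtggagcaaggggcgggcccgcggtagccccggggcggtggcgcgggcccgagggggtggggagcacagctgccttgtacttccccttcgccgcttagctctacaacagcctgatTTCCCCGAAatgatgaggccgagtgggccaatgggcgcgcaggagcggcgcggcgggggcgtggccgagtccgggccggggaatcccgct
Rsad2: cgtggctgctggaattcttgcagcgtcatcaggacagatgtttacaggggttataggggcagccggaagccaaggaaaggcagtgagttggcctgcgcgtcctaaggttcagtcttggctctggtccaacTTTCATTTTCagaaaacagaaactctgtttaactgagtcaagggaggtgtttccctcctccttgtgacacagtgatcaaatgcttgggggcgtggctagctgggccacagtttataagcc
Ifit1: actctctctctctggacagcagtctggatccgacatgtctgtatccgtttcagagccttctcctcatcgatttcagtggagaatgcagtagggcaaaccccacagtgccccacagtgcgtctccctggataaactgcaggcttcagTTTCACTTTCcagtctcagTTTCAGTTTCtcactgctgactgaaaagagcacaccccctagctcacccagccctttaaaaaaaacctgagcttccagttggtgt
Ifi202b: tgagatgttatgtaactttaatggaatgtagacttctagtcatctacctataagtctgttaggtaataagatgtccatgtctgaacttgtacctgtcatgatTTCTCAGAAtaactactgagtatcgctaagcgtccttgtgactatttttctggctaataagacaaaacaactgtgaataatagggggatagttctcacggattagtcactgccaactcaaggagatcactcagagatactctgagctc
Trim30d and Trim30a held the same core, TTTCTTTTTC, starting 41 and 36 bases before their starts. Aligned over 255 columns, the pair were identical at 227 positions, or 90.8% of the 250 bases. Irf1 held a GAS core, TTCCCCGAA, at 90 bases before its start. Rsad2 held 1 ISRE core at 120 bases, Ifit1 held 2 at 104 and 85 bases, and Ifi202b held a GAS core, TTCTCAGAA, at 148 bases. Of the 14 measured genes with an ISRE core, 1, Trim30d, rose with G9a loss, in both compartments, and 13 did not pass the test in either. Of all genes, 1.98% rose and 1.85% fell in the bulge and 0.322% rose and 0.175% fell in the epidermis.

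The arrays were first read for their labels and for cells other than keratinocytes. A probe set of Ehmt2 read 9.51 to 9.78 on the WT arrays and 5.85 to 6.09 on the cKO arrays, in log2 units, and its other probe set read 7.84 to 8.05 on all arrays. The mean log2 signal of 6 bulge stem cell markers was 10.79 to 10.89 in bulge WT, 9.72 to 10.64 in bulge cKO, 7.20 to 7.23 in IFE WT and 7.20 to 7.90 in IFE cKO. IFE cKO replicates 1 to 4 read 7.21, 7.90, 7.88 and 7.20, so replicates 2 and 3 lay above the IFE WT range. The mean of 5 interfollicular and suprabasal markers was 10.32 to 10.41 in bulge WT, and 10.26, 11.53, 11.44 and 11.15 on bulge cKO replicates 1 to 4. Replicates 2, 3 and 4 thus lay above the bulge WT range and below the IFE range of 11.60 to 11.95. Of 11 markers of Langerhans cells and antigen presentation, 5 (45.5%) rose in bulge cKO, against 1.98% of all genes. They were Cd74, H2-Aa, H2-Ab1, H2-Eb1 and Tyrobp. The list mean was 6.13 to 6.31 in bulge WT and 6.58 to 7.13 in bulge cKO. The mean of 9 T cell markers was 5.58 to 5.80 and 5.77 to 6.58 in the same groups, with 0 of 9 past limma's threshold and 7 of 9 at an unadjusted p under 0.05, all higher, against 25.7% of all genes in either direction. In the epidermis the T cell mean was 5.95 to 6.18 in WT and 6.26 to 6.63 in cKO, with no overlap. There 0 of 9 passed the threshold and 4 of 9 had an unadjusted p under 0.05, all higher, against 11.0% of all genes. The antigen presentation mean there was 6.38 to 6.79 in WT and 6.67 to 6.98 in cKO, which overlapped, with 0 of 11 past the threshold and 3 of 11 at an unadjusted p under 0.05. Of 5 plasmacytoid dendritic cell markers, 1 passed in bulge cKO, Tcf4, which fell. The other 4 had positive differences, with Ly6d (1.45) at an unadjusted p under 0.05, while Irf8, Tlr7 and Tlr9 gave 0.11, 0.13 and 0.09. The mean of this list was 6.42 to 6.58 in bulge WT and 6.51 to 6.94 in bulge cKO, which overlapped. Ly6d and Tcf4 also differed between the WT compartments, by -3.26 and 0.74, bulge minus IFE. This mean therefore cannot be read as plasmacytoid dendritic cells alone. The macrophage mean was 4.90 to 4.95 in bulge WT and 4.97 to 5.16 in bulge cKO, with no overlap, 0 of 7 past limma's threshold and 3 of 7 at an unadjusted p under 0.05, all higher. Of 3 endothelial markers, Emcn rose in bulge cKO, by 0.28 (adjusted p = 0.0391), and of 5 fibroblast markers 0 passed, with 1 at an unadjusted p under 0.05.

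In the bulge, few interferon-response genes passed the test with G9a loss. Trim30d and Irf1 rose and Usp18 fell, and the other 30 of 33 genes did not pass the test. The 2 of 33 that rose (6.06%) stand beside 1.98% of all genes tested, and the 1 of 33 that fell (3.03%) beside 1.85%. At an unadjusted p under 0.05, 12 of the 33 (36.4%) differed, 10 higher and 2 lower, against 25.7% of all genes in either direction. A call here is an adjusted p under 0.05 in limma, a linear model with a variance shared across genes, adjusted by Benjamini-Hochberg over 17097 genes. Centring each array on its median left 2 higher members and 1 lower, with 234 higher and 330 lower among all genes, against 339 and 317. Positive differences were seen for 26 of the 33 genes (78.8%) and for 53.8% of all genes. The median difference was 0.15 over the 33 genes and 0.01 over all genes, on the log2 scale.

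In the interfollicular epidermis Trim30d alone of the 33 genes rose and 0 fell. This 1 of 33 (3.03%) stands beside 0.322% of all genes that rose there, and 0.175% fell. At an unadjusted p under 0.05, 6 of the 33 (18.2%) were higher and 0 were lower, against 11.0% of all genes in either direction. The 22 of 33 positive differences (66.7%) compare with 45.2% of all genes, and the medians were 0.07 and -0.01. The T cell marker mean was also higher on every IFE cKO array than on every IFE WT array. On IFE cKO replicates 2 and 3 the bulge stem cell marker mean lay above the IFE WT range. The part of these markers in the epidermal values was not tested. For the difference between the compartments' effects, limma called 0 of the 33 genes, beside 0.105% of all genes, with 3 of 33 (9.09%) at an unadjusted p under 0.05, against 14.1% of all genes. No gene of the set was therefore shown to respond differently in the compartments.

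Trim30d encodes a tripartite-motif protein of the Trim30 cluster, near relatives of Trim30a, which is known to damp Toll-like receptor signalling. Its log2 signal was 4.28, 4.33 and 4.00 in bulge WT and 5.52, 6.04, 6.29 and 5.94 in bulge cKO. In the epidermis it was 4.38, 4.22 and 4.40 in WT and 6.52, 6.40, 6.14 and 7.06 in cKO. Every cKO array lay above every WT array in both compartments, and the lowest cKO array, bulge cKO replicate 1, was more than 1 log2 unit above the highest WT array. The log2 difference was 1.74 (SE 0.20, adjusted p = 0.00113) in the bulge and 2.20 (SE 0.20, adjusted p = 0.000171) in the epidermis by limma. The effects differed by -0.45 (SE 0.29, adjusted p = 0.488), bulge minus epidermis. Between compartments, the cKO arrays of bulge and epidermis overlapped, with a bulge minus IFE difference of -0.58 (SE 0.19, adjusted p = 0.0326), and the WT difference was -0.13 (adjusted p = 0.689). The cKO call was lost with the mean of the gene's probe sets (-0.25, adjusted p = 0.0596), with the most specific probe set (-0.08, adjusted p = 0.511) and with the cKO arrays fitted alone (adjusted p = 0.0819). It was also lost without bulge cKO replicate 1 or 4 and without IFE cKO replicate 1 or 4, with adjusted p up to 0.0932. The WT signal of about 4 lies below the array medians of 5.76 to 5.84, and the deposited values carry no detection call, so whether it exceeds background was not tested.

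The size of the Trim30d change depended on the probe set. The other probe sets of the gene gave 0.68 (SE 0.09, adjusted p = 0.00359) and 0.23 (SE 0.04, adjusted p = 0.012) in the bulge. In the epidermis they gave 0.74 (SE 0.09, adjusted p = 0.00365) and 0.25 (SE 0.04, adjusted p = 0.0183). These limma tests ran over all 45141 probe sets, and all 3 Trim30d probe sets rose in both compartments. Over the 49 probe sets of the 33 genes, 5 passed in the bulge, beside 3.65% of all probe sets, and 4 in the epidermis, beside 0.383%. With bulge cKO replicates 2 and 3 left out, the pair with the highest interfollicular marker means, the bulge difference was 1.53 (adjusted p = 0.0168).

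Trim30a read 4.34, 4.36 and 4.12 in bulge WT and 4.37, 4.49, 4.51 and 4.51 in bulge cKO. In the epidermis it read 4.49, 4.35 and 4.34 in WT and 4.60, 4.51, 4.62 and 5.02 in cKO. All cKO arrays lay above all WT arrays of their compartment, with a narrow gap in each, and all values lay under the array medians. The differences were 0.20 (SE 0.11, adjusted p = 0.251) and 0.29 (SE 0.11, adjusted p = 0.32). A second Trim30a probe set rose in the epidermis by 0.93 (SE 0.17, adjusted p = 0.048 over all probe sets) and gave 0.41 (SE 0.17, adjusted p = 0.175) in the bulge. Which Trim30 transcript each probe set binds was not checked, since probe sequences were not used here, and whether a probe set of one gene also reads another was not tested.

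**Figure D1:**
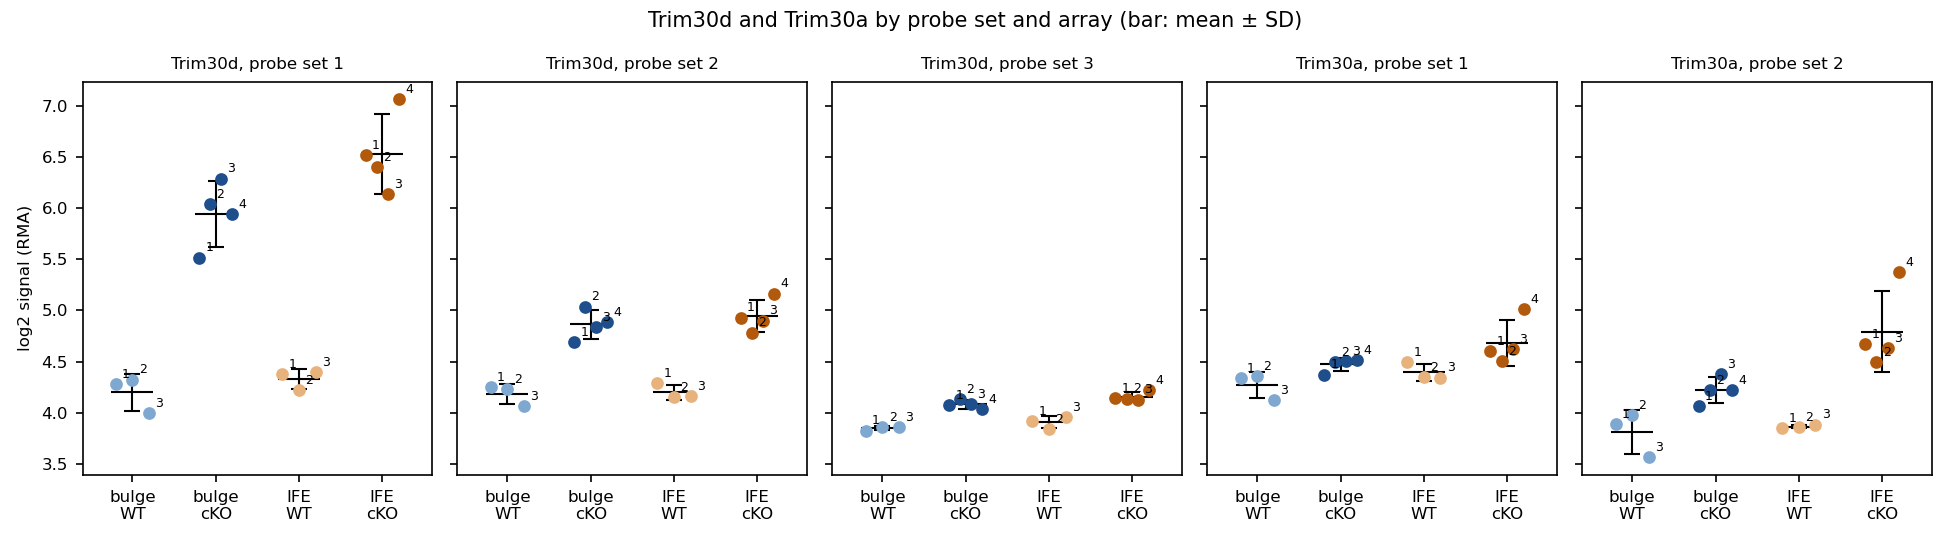
Log2 signal of each Trim30a and Trim30d probe set on each of the 14 arrays, in groups by compartment and genotype, with bars at each group's mean ± SD and numbers for replicates. The Trim30d probe set with the highest mean reads 4.00 to 4.40 on the WT arrays and 5.52 to 7.06 on the cKO arrays, and the other probe sets of both genes show smaller steps.

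Trim30a and Trim30d belong to a run of Trim genes on mouse chromosome 7, many of which encode antiviral or immune-regulatory proteins. In RefSeq order from Trim6 to Trim30d the run has 11 protein-coding genes, of which 7 were measured. In the epidermis, Trim34a rose by 0.91 (SE 0.16, adjusted p = 0.0253) and Trim12a by 0.77 (SE 0.14, adjusted p = 0.0359). Trim34a read 7.09, 6.93 and 6.66 in IFE WT and 7.50, 8.03, 7.80 and 7.90 in IFE cKO, with no overlap. Trim12a read 6.20, 6.29 and 5.87 in IFE WT and 6.74, 6.91, 6.95 and 6.95 in IFE cKO, also with no overlap. Trim12c gave 0.46 (adjusted p = 0.312), Trim5 0.02 (adjusted p = 0.918) and Trim6 -0.03 (adjusted p = 0.895). In the bulge, the same limma fit gave 0.48 (adjusted p = 0.0943) for Trim34a and 0.36 (adjusted p = 0.143) for Trim12a. Both epidermal calls were lost when IFE arrays were fitted alone (adjusted p = 0.0938 for Trim34a and 0.059 for Trim12a), and the most specific probe set of Trim12a gave 0.22 (adjusted p = 0.311). Leaving out 1 array at a time ended the Trim34a call in 6 of 14 fits (IFE cKO replicates 2, 3 and 4 and IFE WT replicates 1, 2 and 3, with adjusted p up to 0.0904). It ended the Trim12a call in 8 of 14, the same 6 with bulge cKO replicate 1 and bulge WT replicate 3 (adjusted p up to 0.12).

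**Figure D2:**
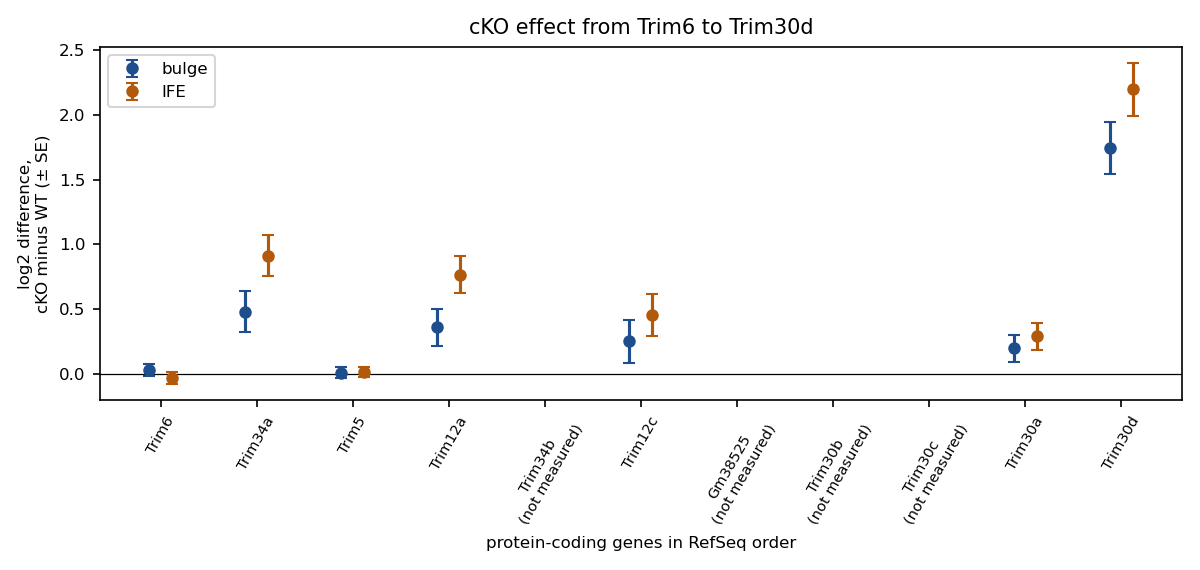
Log2 difference, cKO minus WT, for the 7 measured Trim genes in their order along the chromosome, in bulge and IFE, with standard errors from the limma fit. Trim30d stands at 1.74 and 2.20, and Trim34a and Trim12a reach 0.91 and 0.77 in IFE.

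Among the transcription factors, Irf1, which drives interferon-gamma and antigen-presentation genes, rose in the bulge. Its log2 signal was 7.63, 8.15 and 8.52 in bulge WT and 9.43, 9.12, 9.01 and 8.87 in bulge cKO, with no overlap. In the epidermis it was 8.99, 9.34 and 9.0 in WT and 9.72, 9.39, 9.49 and 9.54 in cKO, again with no overlap but with a narrow gap. The limma difference was 1.01 (SE 0.19, adjusted p = 0.0157) in the bulge and 0.42 (SE 0.19, adjusted p = 0.427) in the epidermis, and the effects differed by 0.58 (SE 0.26, adjusted p = 0.346). WT bulge read lower than WT epidermis, with a difference of -1.01 (SE 0.20, adjusted p = 0.00183), and the bulge cKO arrays overlapped the IFE WT arrays. The bulge call ended without bulge WT replicate 1 (0.77, adjusted p = 0.0611), without bulge WT replicate 2 (adjusted p = 0.0614), without bulge cKO replicates 2 and 3 (adjusted p = 0.112) and with the bulge arrays fitted alone (adjusted p = 0.112). Bulge cKO also had the higher antigen presentation markers and, on replicates 2, 3 and 4, the higher interfollicular means given above, and their part in the Irf1 result was not tested.

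Irf9 and Stat2 are subunits of the ISRE-binding complex. Irf9 gave 0.14 (adjusted p = 0.501) in the bulge and 0.44 (adjusted p = 0.199) in the epidermis, and Stat2 gave 0.22 (adjusted p = 0.26) and 0.31 (adjusted p = 0.342). All IFE cKO arrays lay above the IFE WT arrays for both genes, without passing limma's threshold. Irf7, the factor that amplifies type I interferon production, gave 0.01 (adjusted p = 0.914) and -0.01 (adjusted p = 0.987).

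The pathway's own brake, Usp18, which removes Isg15 from proteins and blocks the type I interferon receptor, fell in the bulge. It read 5.78, 5.51 and 5.65 in bulge WT and 4.98, 4.88, 5.02 and 5.37 in bulge cKO, with no overlap. The epidermal values were 4.96, 5.26 and 4.74 in WT and 4.63, 4.76, 4.90 and 5.02 in cKO, which overlapped. The limma difference was -0.58 (SE 0.14, adjusted p = 0.0417) in the bulge and -0.16 (SE 0.14, adjusted p = 0.766) in the epidermis, and the effects differed by -0.42 (SE 0.20, adjusted p = 0.359). WT bulge was higher than WT epidermis by 0.66 (SE 0.15, adjusted p = 0.00436). Usp18 lay under the array medians on all arrays, and its call ended in 9 of 14 fits that left out 1 array, namely any bulge WT array, bulge cKO replicates 1, 2 and 3, IFE cKO replicates 2 and 3 and IFE WT replicate 1 (adjusted p from 0.0108 to 0.17 over the 14). It also ended without bulge cKO replicates 2 and 3 (adjusted p = 0.357) and with bulge arrays fitted alone (adjusted p = 0.109).

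The cytosolic sensors did not pass the test in either compartment. Ddx58 (RIG-I), Ifih1 (MDA5) and Dhx58 (LGP2) bind foreign double-stranded RNA, Mavs relays their signal at mitochondria, Trim25 ubiquitinates RIG-I, and Zbp1 senses left-handed nucleic acid. In the bulge the differences were -0.05 for Ddx58, 0.19 for Ifih1, 0.12 for Dhx58, -0.20 for Mavs, -0.29 for Trim25 and 0.20 for Zbp1, and adjusted p ran from 0.103 to 0.822. In the epidermis they were 0.15, 0.28, -0.02, 0.07, -0.16 and 0.02 in the same order, and adjusted p ran from 0.475 to 0.977 in the limma fit. All bulge cKO arrays lay below the bulge WT arrays for Mavs. Mavs and Dhx58 lay under the array medians on all arrays, so they may be read near background.

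No antiviral effector of the set passed the test with G9a loss. Ifit1, Ifit2 and Ifit3 bind viral RNA, and gave 0.15, 0.03 and 0.32 in the bulge, with adjusted p of 0.0764, 0.554 and 0.115, and 0.10, 0.07 and 0.05 in the epidermis. Oas2, Oas3 and Oasl2 belong to the family of oligoadenylate synthetases that activate RNase L, although Oasl2 is a divergent member. They gave 0.10, 0.28 and 0.24 in the bulge, and 0.05, -0.03 and 0.18 in the epidermis. Rsad2 (viperin), an enzyme that makes a chain-terminating nucleotide, gave 0.18 (adjusted p = 0.376) and 0.29 (adjusted p = 0.425). Mx1 and Mx2 belong to a family of dynamin-like antiviral GTPases, and RefSeq lists both as transcribed pseudogenes in the reference mouse. They gave 0.19 and 0.00 in the bulge and -0.02 and 0.02 in the epidermis. Ifitm3, which blocks viral entry, gave 0.10 and -0.10. Eif2ak2 (PKR), which halts translation on double-stranded RNA, and Adar, which edits such RNA, gave 0.04 and 0.12 in the bulge and -0.04 and 0.16 in the epidermis. None of these 12 genes passed limma's threshold in a cKO comparison of the main fit, and limma's trend and robust options called Ifit1 in the bulge. Ifit1, Ifit2 and Mx2 lay under the array medians on all arrays, so they may be read near background.

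The other 8 genes did not pass the test either, and some had wide spreads. Cxcl10, a chemokine for activated T cells, gave 0.44 (SE 0.21, adjusted p = 0.199) in the bulge and 0.17 (SE 0.21, adjusted p = 0.855) in the epidermis. Rtp4, a receptor chaperone induced by interferon, gave 0.75 (SE 0.30, adjusted p = 0.147) and 0.12 (SE 0.30, adjusted p = 0.936), and Ifi202b, a DNA-binding protein of the HIN-200 family, gave 1.49 (SE 0.52, adjusted p = 0.108) and -0.26 (SE 0.52, adjusted p = 0.917). Bulge WT read 6.01 and 6.39 for Ifi202b on replicates 1 and 2 and 8.30 on replicate 3, inside the bulge cKO range of 7.61 to 8.96, and limma called it once bulge WT replicate 3 was left out. Rtp4 was called in the bulge without IFE cKO replicate 4 (adjusted p = 0.0371). Gbp2 and Gbp3, guanylate-binding GTPases, gave 0.36 and -0.02 in the bulge and 0.13 and -0.02 in the epidermis. Gbp3 lay under the array medians on all arrays, so it may be read near background. Xaf1, linked to apoptosis, gave -0.14 and 0.18, Ifi27l2a gave 0.22 and -0.29, and Ifi35 gave -0.03 and 0.09.

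**Figure D3:**
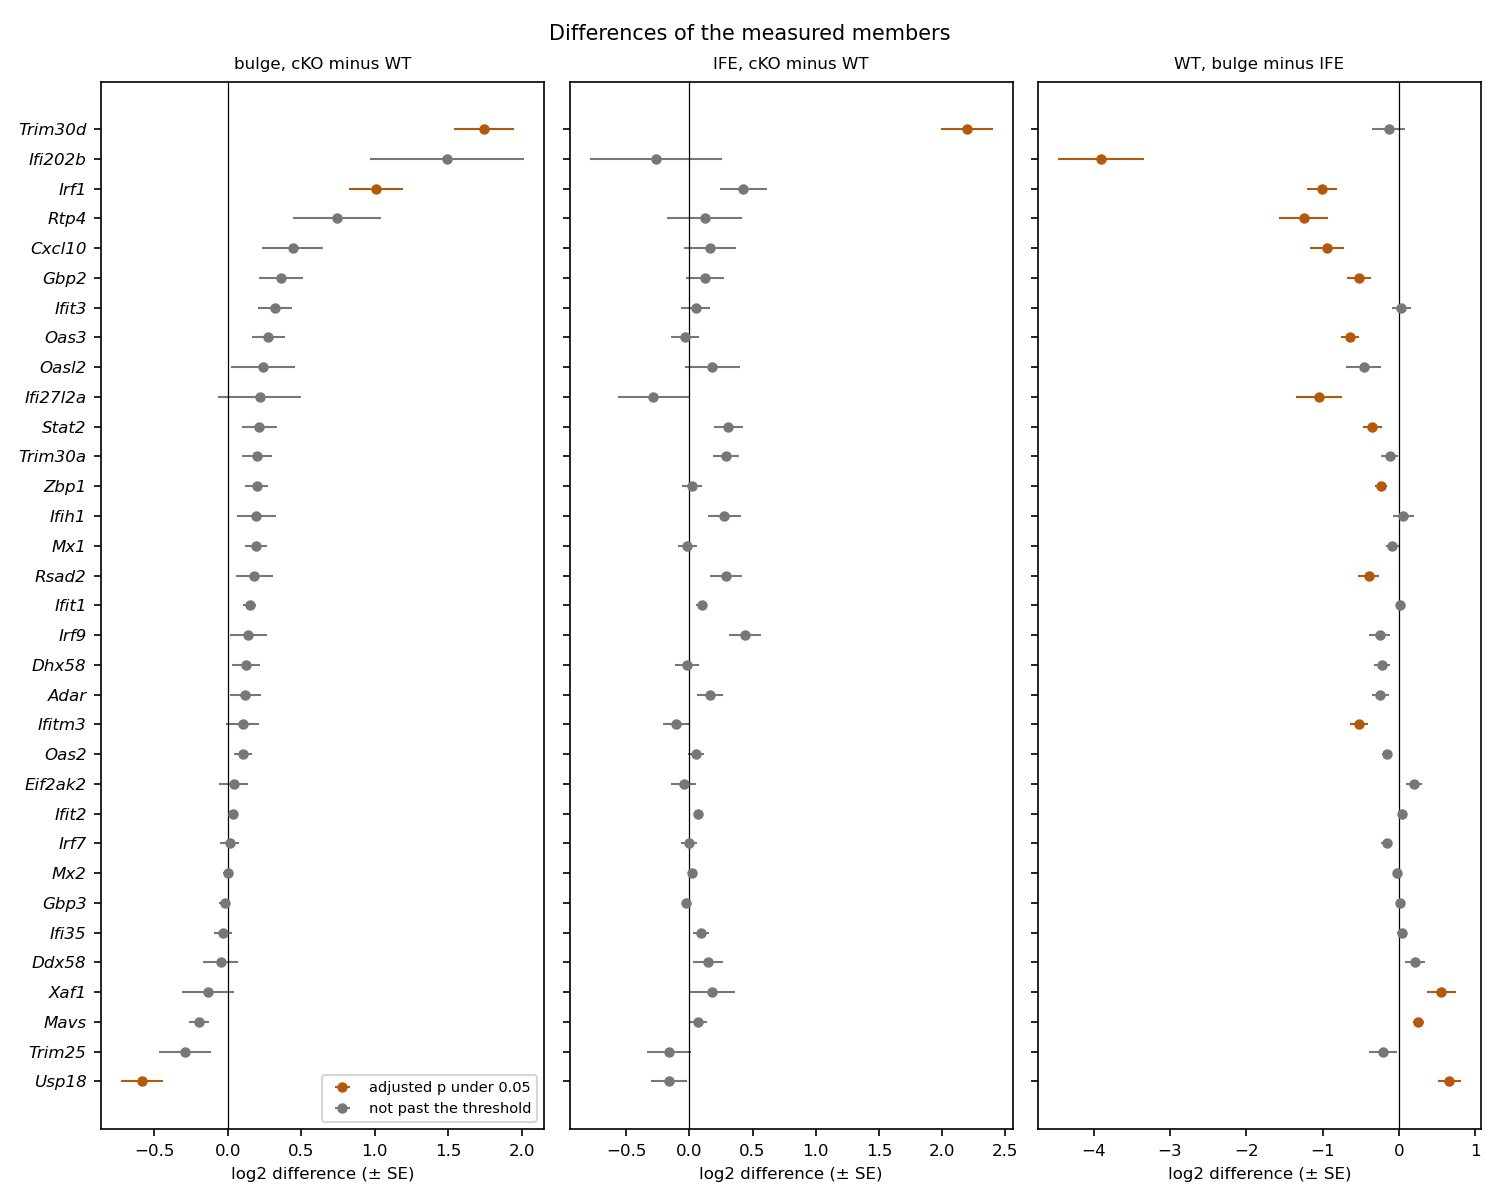
Log2 difference, cKO minus WT, with its standard error for each of the 33 measured genes in bulge and in IFE, and bulge minus IFE in WT in the third panel, from the limma fit with called genes coloured. Trim30d lies at 1.74 and 2.20 in the cKO panels, while Ifi202b lies at -3.90 in the WT panel.

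Counted by arrays, the groups did not overlap for 10 of the 33 genes in the bulge, beside 18.5% of all genes, and for 7 of the 33 in the epidermis, beside 11.0%. In the bulge, 8 lay above (Ifit1, Irf1, Oasl2, Oas3, Rtp4, Trim30a, Trim30d and Gbp2) and 2 below (Usp18 and Mavs). In the epidermis all 7 lay above (Ifit1, Ifit2, Irf1, Irf9, Stat2, Trim30a and Trim30d). The mean log2 signal over the 33 genes was 5.99 to 6.02 in bulge WT, 6.14 to 6.31 in bulge cKO, 6.27 to 6.37 in IFE WT and 6.36 to 6.68 in IFE cKO. Without Trim30d it was 6.04 to 6.08, 6.16 to 6.31, 6.32 to 6.43 and 6.36 to 6.67, so the bulge groups stayed apart and the epidermal groups overlapped. The antigen presentation marker mean was also higher on every bulge cKO array than on every bulge WT array, and the interfollicular mean on replicates 2, 3 and 4 but not on replicate 1. The part of these markers in the bulge values was not tested.

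The number of bulge calls moved with single arrays. Without bulge cKO replicate 4, limma called 8 of the 33 genes, gaining Ifit1, Ifit3, Mx1, Mavs and Zbp1. Without bulge cKO replicates 2 and 3 it called 1, Trim30d. IFE cKO replicate 4 had the highest signal of its group for 21 of the 33 genes, against 8, 3 and 1 for replicates 1, 2 and 3, and for 30.4% of all genes. On that array the mean of the T cell markers was 6.26, the lowest of its group but above the IFE WT range of 5.95 to 6.18. Its antigen presentation mean was 6.79, inside the range of its group. The part of these markers in the values of that array was not tested.

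**Figure D4:**
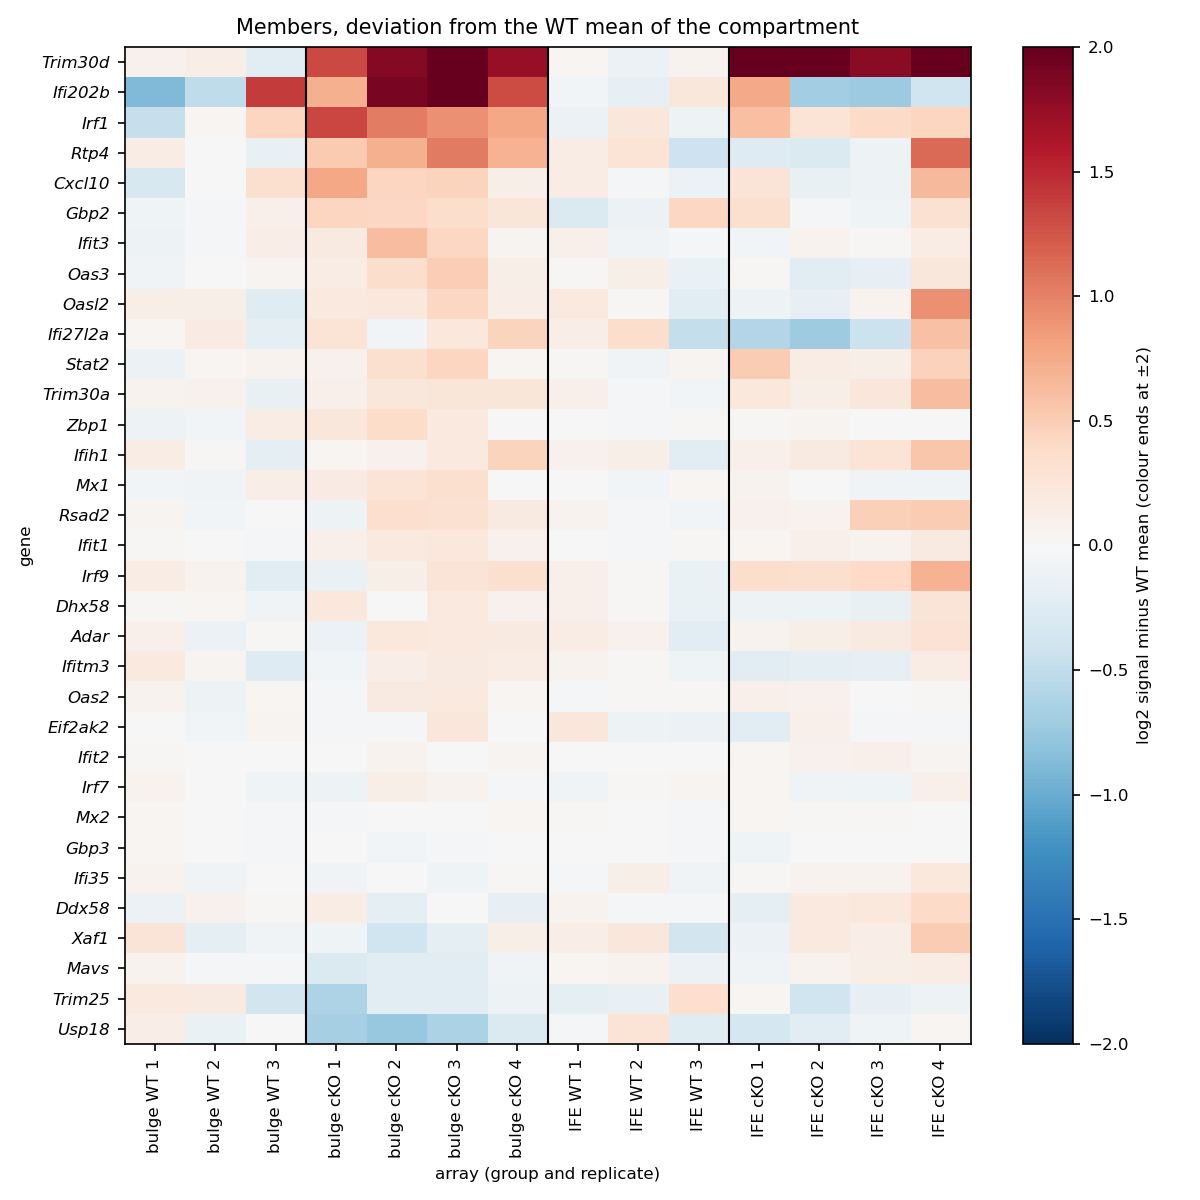
Each measured gene's log2 signal on each array, as the difference from that gene's WT mean in the same compartment, with the colour scale ending at ±2 log2 units. Trim30d separates WT from cKO arrays in both compartments, and IFE cKO replicate 4 is the highest of its group for 21 of the 33 genes.

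The compartments differed in more of these genes than the genotypes did, and the same held over all genes. Between the WT compartments limma called 14 of the 33 genes, beside 5998 of all 17097 genes. With G9a loss it called 656 of all genes in the bulge and 85 in the epidermis. In WT mice, 11 of the 33 genes (33.3%) were lower in bulge than in epidermis, beside 16.6% of all genes, and 3 (9.09%) were higher, beside 18.4%. The median was -0.16 over the 33 genes and -0.01 over all genes. Centring each array on its median instead gave 13 lower and 2 higher members, with 3695 lower and 2730 higher among all genes, against 2846 and 3152. Of the 11 markers of Langerhans cells and antigen presentation, 4 (36.4%) were also lower in WT bulge and 0 were higher. Their mean was 6.13 to 6.31 in bulge WT and 6.38 to 6.79 in IFE WT, with no overlap. Of the 9 T cell markers, 1, Thy1, was lower and 0 were higher. The part of these markers in the WT differences was not tested.

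Ifi202b showed the largest WT difference of the set, through a probe set that may read several related genes, which was not checked. It read 6.01, 6.39 and 8.30 in bulge WT and 10.75, 10.63 and 11.03 in IFE WT, with 7.61, 8.79, 8.96 and 8.20 in bulge cKO and 11.56, 10.11, 10.07 and 10.40 in IFE cKO. Every bulge array lay below every IFE array, and bulge minus IFE was -3.90 (SE 0.56, adjusted p = 0.000225) in WT and -2.15 (SE 0.48, adjusted p = 0.00577) in cKO. The compartment and genotype comparisons share groups of arrays, so their values are given side by side only.

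Rtp4 was 5.02, 4.86 and 4.72 in bulge WT and 6.26, 6.38 and 5.71 in IFE WT, with 5.39, 5.59, 5.91 and 5.57 in bulge cKO and 5.86, 5.83, 6.01 and 7.25 in IFE cKO. Bulge WT was lower on every array, bulge minus IFE being -1.25 (SE 0.32, adjusted p = 0.00875), and the cKO difference was -0.62 (adjusted p = 0.104). Ifi27l2a, a small interferon-induced protein, was 7.17, 7.30 and 6.94 in bulge WT and 8.31, 8.54 and 7.71 in IFE WT, with 7.40, 7.08, 7.34 and 7.58 in bulge cKO and 7.60, 7.48, 7.77 and 8.77 in IFE cKO. Bulge WT lay below IFE WT on all arrays, with a difference of -1.05 (SE 0.30, adjusted p = 0.0158), and the cKO groups overlapped. The WT call ended without bulge WT replicate 3 (adjusted p = 0.0562), IFE WT replicate 1 (adjusted p = 0.0503) or IFE WT replicate 2 (adjusted p = 0.0637).

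Cxcl10 was 4.98, 5.29 and 5.62 in bulge WT and 6.39, 6.20 and 6.13 in IFE WT, with 6.07, 5.73, 5.74 and 5.42 in bulge cKO and 6.50, 6.09, 6.14 and 6.88 in IFE cKO. The compartments did not overlap in either genotype, and bulge minus IFE was -0.94 (SE 0.22, adjusted p = 0.00521) in WT and -0.66 (SE 0.19, adjusted p = 0.0192) in cKO. Irf1 completes the 5 largest WT differences. The other genes lower in WT bulge were Oas3, Ifitm3, Gbp2, Rsad2, Stat2 and Zbp1, with differences from -0.64 to -0.23 and limma adjusted p from 0.00126 to 0.0461. Usp18 was higher, with Xaf1 by 0.55 (SE 0.19, adjusted p = 0.0369) and Mavs by 0.25 (SE 0.07, adjusted p = 0.017). Of these calls, those of Zbp1, Stat2 and Rsad2 held in 3, 7 and 8 of the 14 fits that left out 1 array, those of Xaf1 and Gbp2 in 11, that of Mavs in 12 and those of Oas3 and Ifitm3 in all. The WT count fell to 8 without bulge WT replicate 1 and to 9 without IFE WT replicate 3.

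In cKO mice, 9 of the 33 genes (27.3%) were lower in bulge than in epidermis, beside 14.6% of all genes, and 2 (6.06%) were higher, beside 17.6%. The 9 were Irf9, Ifi202b, Rsad2, Stat2, Cxcl10, Oas3, Ifitm3, Trim30d and Adar, and the 2 were Ifit3, by 0.30 (SE 0.11, adjusted p = 0.0486), and Eif2ak2, by 0.28 (SE 0.09, adjusted p = 0.0332). Irf9, with -0.25 (adjusted p = 0.175) in WT, gave -0.55 (SE 0.12, adjusted p = 0.00413) in cKO. Centring each array on its median gave 0 higher and 11 lower members, with 2045 higher and 3118 lower among all genes, against 3007 and 2489. The Ifit3 call held in 2 of the 14 fits that left out 1 array and that of Trim30d in 10. Without IFE cKO replicate 4 the count was 4, and without IFE cKO replicate 1 it was 7. Bulge cKO replicates 2, 3 and 4 carried interfollicular marker means above the bulge WT range. IFE cKO replicates 2 and 3 carried bulge stem cell marker means above the IFE WT range. The part of these markers in the differences was not tested.

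**Figure D5:**
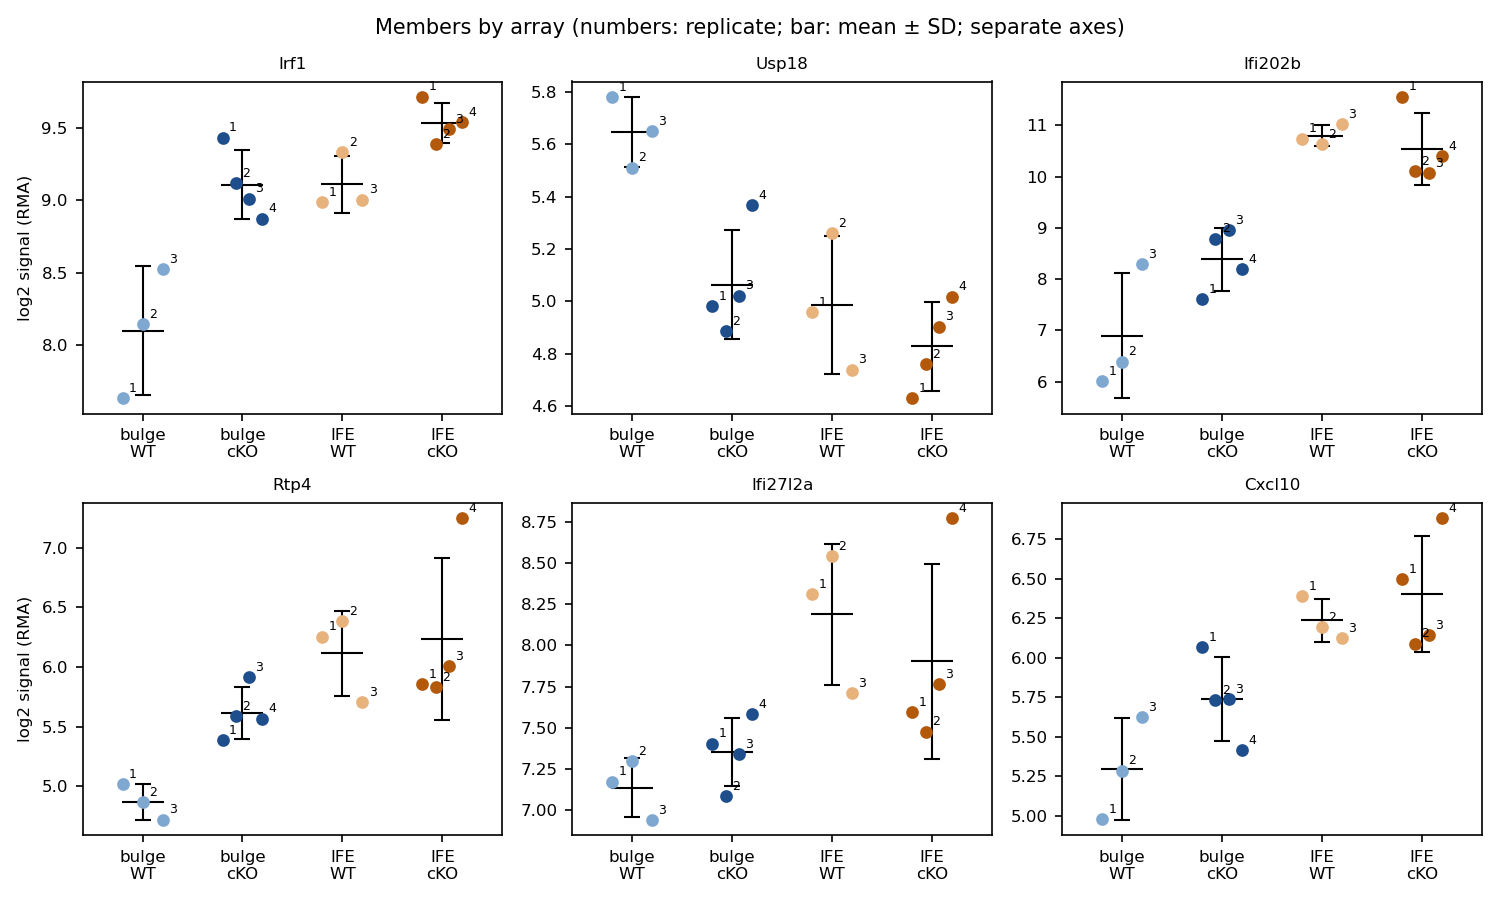
Log2 signal on each array for Irf1, Usp18, Ifi202b, Rtp4, Ifi27l2a and Cxcl10 in the 4 groups, with 1 point per array, replicate numbers, bars at the group mean ± SD and a separate axis for each gene. Usp18 is higher in bulge WT than in IFE WT, and the other 5 genes are lower.

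Few of the ligands and receptors upstream of these genes passed the test with G9a loss. Of 11 measured interferon genes, limma called 0 in either compartment. At an unadjusted p under 0.05 there were 3 (27.3%) in the bulge and 0 in the epidermis, against 25.7% and 11.0% of all genes. The mean signal of the interferon genes was 5.20 to 5.37 on all arrays, a mean over probe sets of different level. Of 20 receptor and signalling genes, 1 (5.0%) rose and 0 fell in the bulge, against 1.98% and 1.85% of all genes. It was Irf5, a factor downstream of Toll-like receptors, which rose by 0.39 (SE 0.09, adjusted p = 0.0368). In the epidermis 0 of 20 passed, with 2 (10.0%) at an unadjusted p under 0.05, against 11.0% of all genes.

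Of 25 measured genes that sense nucleic acids or restrict viral RNA, 2 (8.0%) rose and 0 fell in the bulge, against 1.98% and 1.85% of all genes. Nlrc5, the transactivator of MHC class I genes, read 6.97, 6.80 and 7.25 in bulge WT and 8.17, 8.74, 8.58 and 8.16 in bulge cKO, with no overlap. In the epidermis it read 8.83, 8.82 and 9.26 in WT and 9.26, 9.28, 9.15 and 9.0 in cKO, which overlapped. It rose by 1.41 (SE 0.16, adjusted p = 0.00113) in the bulge and gave 0.20 (adjusted p = 0.734) in the epidermis. Zc3hav1, a zinc-finger antiviral protein, rose in the bulge by 0.75 (SE 0.18, adjusted p = 0.0442). In the epidermis 0 of 25 passed, with 3 at an unadjusted p under 0.05.

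Of 62 list entries for other interferon-stimulated genes, 6 rose (9.68%) and 1 fell (1.61%) in the bulge, against 1.98% and 1.85% of all genes. Their median was 0.09, against 0.01. Mndal and Tgtp2 were matched to Ifi203 and Tgtp1, which the list also names, so those genes are counted again in its shares and median. Beside the genes described next, Ifi27 (0.24 (adjusted p = 0.0439)) and Sp100 (0.23 (adjusted p = 0.0456)) rose, and they are named after their values were seen. Oas1g rose by 1.04 (SE 0.19, adjusted p = 0.0138) and Ifit1bl1 by 0.36 (SE 0.08, adjusted p = 0.0327). Oas1f rose by 1.92 (SE 0.41, adjusted p = 0.0297), from 6.88, 6.59 and 6.79 in bulge WT to 7.34, 9.56, 9.33 and 8.44 in bulge cKO. Its epidermal values were 10.39, 9.77 and 9.69 in WT and 10.43, 10.28, 10.04 and 10.50 in cKO. Bulge cKO replicates 2 and 3 carried its highest bulge values, and they were also the arrays with the highest interfollicular markers. Oas1d rose by 0.58 (SE 0.14, adjusted p = 0.0411), through a probe set that may read several Oas1 genes. Gbp4, named after its values were seen as the single gene of the list that fell, had a difference of -0.28 (SE 0.07, adjusted p = 0.0458). In the epidermis 0 of the 62 entries passed, with 13 (21.0%) at an unadjusted p under 0.05, all higher, against 11.0% of all genes in either direction. Of 14 further Trim genes, 0 passed in the bulge, with 3 (21.4%) at an unadjusted p under 0.05, against 25.7% of all genes. In the epidermis 2 of the 14 (14.3%), Trim34a and Trim12a, rose, against 0.322% of all genes. With 1 array left out at a time, the Nlrc5 call held in all 14 fits, that of Oas1g in 13, Oas1f in 9, Ifit1bl1 in 8, Irf5 and Zc3hav1 in 6, and Oas1d, Gbp4, Ifi27 and Sp100 in 4. Without bulge cKO replicates 2 and 3, the bulge calls over these lists dropped from 10 to 1, Nlrc5.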

How the data were processed

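RNA from bulge and IFE cells of G9a WT and cKO mice was measured on 14 Affymetrix arrays. Per the submitters' processing notes the arrays were summarised by RMA, and the authors deposited 1 log2 signal for each probe set and array. Its version was not given in the sources used here. No detection call comes with these values. RMA equalises the distribution of signal across arrays, which can hide a shift shared by most genes.

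Of 45141 probe sets, 28898 had 1 gene symbol, 551 several and 15692 none. Symbols were updated through RefSeq (28689 matched; 209 kept the platform's). The probe set with the highest mean stood for each of 17097 genes. The values of all 14 arrays entered 1 limma fit (limma 3.58.1, R 4.3.3, 10 residual degrees of freedom) with a mean per group, two-sided, and p-values were adjusted by Benjamini-Hochberg over all genes. The script was tested on simulated data. Per-array values are given for every member past the threshold in a cKO comparison with WT and for the members with the 5 largest WT compartment differences. From each pathway list up to 4 called genes with the smallest p were named, and the genes named by role cover the rest. Alternative settings rescaled the arrays (median centring or cyclic loess), left out dim genes, or used other choices of probe set, limma's trend and robust options, the compared groups alone or a replicate block. Each array, and bulge cKO replicates 2 and 3 together, were also left out. The members, lists and tests were chosen with earlier results of these data known. Figures were drawn with matplotlib 3.10.9.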

Additional observations from a re-analysis of the deposited data

Results flagged for a closer look

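In 66 groups of 4 cKO arrays (33 genes in 2 compartments), the array farthest out was set against Dixon's critical value, which chance passes in about 1 of 20 groups. It was passed 6 times. IFE cKO replicate 4 was the high array for Ifitm3 (11.75, nearest array 11.43), Rtp4 (7.25, nearest 6.01) and Dhx58 (5.44, nearest 5.08). IFE cKO replicate 1 was the low array for Gbp3 (3.41, nearest 3.49). Bulge cKO replicate 1 was the low array for Trim30a (4.37, nearest 4.49) and for Adar (6.8, nearest 7.1). No gene of the set had all arrays of one compartment moving up with G9a loss and all arrays of the other moving down.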

How the results depend on the processing

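Trim30d kept its rise in both compartments under every alternative run; its bulge difference was 1.63 to 1.89 and its IFE difference 2.02 to 2.33 when arrays were left out in turn, 0.89 and 1.06 with the mean of its probe sets, and 0.68 and 0.74 with the most specific one. No direction reversed. The bulge count of 3 called members was 1 with only the compared groups fitted, 1 with bulge cKO replicates 2 and 3 left out, and 1 to 8 with each array left out in turn. The IFE count stayed at 1 and the count for the difference of effects at 0 throughout. Leaving out each array in turn gave 8 to 15 members for bulge against IFE in WT (14 with all arrays) and 4 to 11 in cKO (11 with all arrays). The pathway lists had 10 bulge calls, and 1 with bulge cKO replicates 2 and 3 left out. The replicate block gave 3 members in the bulge, 1 in IFE, 12 between WT compartments and 7 between cKO compartments. Replicate numbers were not shown to pair the arrays. Over 13 same-numbered pairs the correlation of deviations from group means ran from -0.616 to 0.251, and 3 of 13 arrays matched best with their own number. Some of these pairs, with the lowest value among them, set WT against cKO. Between bulge and IFE, the same-numbered pairs gave 0.251, 0.036 and 0.144 in WT and -0.029, 0.11, -0.57 and 0.151 in cKO. Whether such bulge and IFE samples share an animal was not settled by these values. Losses under the remaining settings had causes that were not tested. The number of arrays limits the precision, and genes under the array medians may be read near background.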

Other observations

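The upstream genes of the pathway were also compared between the WT compartments, where 16.6% of all genes were lower in bulge and 18.4% higher. The values are bulge minus IFE. Of 20 receptor and signalling genes, 7 (35.0%) were lower in WT bulge than in WT epidermis and 2 (10.0%) were higher. Ifngr1, a subunit of the interferon-gamma receptor, gave -1.74 (SE 0.27, adjusted p = 0.000378), Jak1, the kinase shared by the interferon receptors, -0.89 (SE 0.14, adjusted p = 0.000442), and Irf5 -0.96 (SE 0.10, adjusted p = 2.31e-05) in limma. Ptpn2, a phosphatase that acts on Jak1, gave -0.60 (SE 0.06, adjusted p = 2.75e-05).

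Among the 25 sensing genes, 10 (40.0%) were lower in WT bulge and 1 (4.0%) was higher. Nlrc5 gave -1.96 (SE 0.18, adjusted p = 1.38e-05), Myd88, the adaptor of Toll-like receptors, -1.24 (SE 0.14, adjusted p = 4.39e-05), Ikbke -0.78 (SE 0.09, adjusted p = 4.12e-05) and Cgas, the cytosolic DNA sensor, -0.72 (SE 0.09, adjusted p = 9.38e-05), in limma. Of 62 entries for other interferon-stimulated genes, with Ifi203 and Tgtp1 counted again as above, 13 (21.0%) were lower and 8 (12.9%) higher, shares near those of all genes. Among them were Oas1f at -3.20 (SE 0.44, adjusted p = 0.000169) and Oas1g at -1.28 (SE 0.20, adjusted p = 0.000405). Of 14 further Trim genes, 6 (42.9%) were higher and 2 (14.3%) lower. Of the 11 interferon genes 0 passed, with 2 (18.2%) at an unadjusted p under 0.05, against 43.7% of all genes. These examples were chosen after their values were seen. The mean of the antigen presentation markers was also lower in WT bulge, as given above, and its part in these differences was not tested.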
